A study of Mus musculus with 12 samples.

Results

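The zinc exporters described here are 8 genes of the Slc30a family: Slc30a1, Slc30a2, Slc30a4, Slc30a5, Slc30a6, Slc30a7, Slc30a9 and Slc30a10. They were taken as a named list, and every probe set annotated to 1 of them and to no other gene was used. All 8 were measured, among 18193 genes on the array, by 11 probe sets. Where a gene had 2 probe sets, as Slc30a1, Slc30a7 and Slc30a10 did, the one with the higher mean over the 12 arrays stood for the gene and the other is given beside it. A probe set is a group of short probes that read the same transcript, and its level is given as a log2 intensity.

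Liver RNA of C57Bl/6 mice aged 3 months was measured on 12 arrays in 3 groups of 4. The groups were wild type mice with no agent, Atp7b-/- mice with no agent, and Atp7b-/- mice given supplemental zinc. Atp7b encodes a copper pump with which hepatocytes load ceruloplasmin and empty copper into bile, and people who lack it have Wilson disease. The sources used here do not give the way the gene was disrupted, the zinc dose, its duration, the sex of the mice, or whether each array came from a separate animal, so the p-values rest on a spread between arrays that may be technical in part.

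Most SLC30 proteins, also called ZnT, move zinc out of the cytosol and work against the SLC39 (ZIP) importers. They do so either across the plasma membrane or into vesicles, the Golgi and other organelles. Cytosolic zinc is buffered by metallothioneins, and the zinc-sensing transcription factor MTF1 turns on the metallothionein genes and Slc30a1 when free zinc is high. Some family members serve other purposes: SLC30A9 exports zinc from mitochondria, SLC30A10 exports manganese, and SLC30A8 fills insulin granules with zinc in pancreatic islets.

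The labels were checked first. On its brightest probe set Atp7b was at 8.51 to 8.69 in wild type, 6.91 to 7.25 in untreated Atp7b-/- and 6.57 to 6.98 in zinc-treated Atp7b-/- arrays. There it was lower in every mutant array than in every wild type array. On another of its probe sets zinc-treated replicate 3, at 5.64, lay above wild type replicate 2, at 5.53. The sources used here do not give where the probes of Atp7b lie relative to the disruption. The 5 measured hepatocyte markers of 6 listed had a mean of 14.08 to 14.36 in the 12 arrays. Pancreatic acinar markers, of which 11 of 12 were measured, had a mean of 8.39 and 6.18 in zinc-treated replicates 2 and 3, against 4.98 to 5.31 in the other 10 arrays. In untreated Atp7b-/- against wild type, 5 of 7 macrophage markers and 3 of 5 endothelial markers fell, where 10.3% of all genes did. In that comparison 1 of 5 cholangiocyte and 1 of 2 erythroid markers measured rose, where 14.3% of all genes did. With zinc, 2 of 5 stellate and 1 of 5 endothelial markers rose and 1 of 5 hepatocyte markers fell against untreated Atp7b-/-. There 1.7% of all genes rose and 4.84% fell. Against wild type 1 of 5 endothelial markers fell with zinc, where 2.73% of all genes did. The part of these cell types in the changes below was not tested. Every array is of whole liver, so fewer cells of a type and less RNA per cell cannot be told apart.

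Of the 8 members, 1 rose and none fell in untreated Atp7b-/- against wild type, by limma at a Benjamini-Hochberg adjusted p under 0.05 over all genes. Of all genes tested 24.6% changed in that comparison, with 14.3% higher and 10.3% lower, so the members did not exceed the background. Between zinc-treated and untreated Atp7b-/- none of the 8 was called by limma, where 6.54% of all genes were, 1.7% higher and 4.84% lower. At an unadjusted p under 0.05 the count was 1, Slc30a2. The share of all genes under that looser threshold was not counted, so this count cannot be set against a background. In zinc-treated Atp7b-/- against wild type 2 of 8 rose and none fell, where 7.62% of all genes changed, 4.89% higher and 2.73% lower. The median change of the 8 members was 0.03, -0.03 and 0.07 in the 3 comparisons, and that of all genes -0.05, 0.01 and -0.02. Each group serves in 2 of the 3 comparisons, so their results are not independent.

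Slc30a1 (gene 22782, chromosome 1) encodes the zinc exporter of the plasma membrane. Its promoter is shown because MTF1 is known to act on it, and that of Slc30a9 because this was the other member to rise. Capitals mark matches to the metal response element, written here as TGCACNC or TGCGCNC and searched on both strands. The sequences are the 250 bases before the annotated start, 5′ to 3′ on the gene's strand, from RefSeq on build GRCm38.p6.
Slc30a1, chr1:191906531-191906780, plus strand: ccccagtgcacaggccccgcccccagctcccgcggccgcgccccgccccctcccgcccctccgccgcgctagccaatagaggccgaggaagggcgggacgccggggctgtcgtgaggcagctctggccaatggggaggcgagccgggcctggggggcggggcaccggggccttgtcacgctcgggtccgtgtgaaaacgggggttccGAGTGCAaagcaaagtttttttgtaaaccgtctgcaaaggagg
Slc30a9, chr5:67306705-67306954, plus strand: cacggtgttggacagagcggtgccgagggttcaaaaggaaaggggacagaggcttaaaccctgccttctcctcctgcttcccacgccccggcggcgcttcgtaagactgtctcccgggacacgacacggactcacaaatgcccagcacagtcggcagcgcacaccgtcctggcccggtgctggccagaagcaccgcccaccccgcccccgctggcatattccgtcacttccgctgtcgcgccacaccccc
The capitals in Slc30a1 begin at base -43 from the start and read TGCACTC on the opposite strand. A second match, TGCGCTC on the opposite strand, begins at base 31 after the start, in the part of the window that is not printed. The window searched was 300 bases long, 250 before and 50 after the start. It held 2 matches for Slc30a1 and none for Slc30a9. Of the 8 members, 5 had at least 1 match, with 3 each in Slc30a4 and Slc30a10, 2 in Slc30a2, 1 in Slc30a5 and none in Slc30a6 and Slc30a7. The windows of Mt1 and Mt2, the classic MTF1 targets, held 3 and 4 matches. Among all 32851 such windows 25.7% held at least 1 match, 7.11% at least 2 and 1.97% at least 3. The members' windows were 55.7% to 81.7% G or C, and of the 9690 windows with at least 60% G or C, 45.2% held at least 1 match and 16.7% at least 2. A match describes these letters only.

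The brighter probe set of Slc30a1 (1436164_at) was at 10.35, 10.48, 10.36 and 10.12 in wild type, 11.11, 10.95, 10.33 and 10.48 in untreated mutants, and 11.34, 10.65, 10.96 and 11.03 in zinc-treated Atp7b-/-. All 4 zinc-treated arrays lay above all wild type arrays, while untreated replicates 3 and 4 lay within or at the edge of the wild type range and replicates 1 and 2 among the zinc-treated arrays. The group means were 10.33 ± 0.15, 10.72 ± 0.37 and 10.99 ± 0.28 (SD, n = 4 each). Slc30a1 rose in zinc-treated Atp7b-/- against wild type by 0.67 on the log2 scale (95% interval 0.29 to 1.04), a 1.59-fold change (limma, adjusted p = 0.0328). In untreated Atp7b-/- against wild type it differed by 0.39 (0.02 to 0.77, adjusted p = 0.115), and between zinc-treated and untreated Atp7b-/- by 0.27 (-0.10 to 0.65, adjusted p = 0.392). Neither passed the test. The rise in zinc-treated Atp7b-/- against wild type missed the threshold without wild type replicate 1, 3 or 4 (0.68, 0.68 and 0.60). It also missed it without zinc-treated replicate 1, 3 or 4 (0.55, 0.68 and 0.66). The limma adjusted p was at most 0.0899 in these settings. The untreated mutant passed the threshold without its replicate 3, at 0.52 (limma, adjusted p = 0.0458).

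The dimmer probe set of Slc30a1 (1422786_at) was at 7.93, 8.09, 7.94 and 7.71 in wild type, 8.99, 8.80, 8.40 and 8.60 in untreated mutants, and 8.997, 8.16, 8.57 and 8.60 in zinc-treated Atp7b-/-. Every mutant array, with or without zinc, lay above every wild type array, and the mutant groups overlapped. The means were 7.92 ± 0.16, 8.70 ± 0.25 and 8.58 ± 0.34 (SD, n = 4 each). On this probe set Slc30a1 rose in untreated Atp7b-/- by 0.78 (0.44 to 1.13), a 1.72-fold change with an adjusted p = 0.00402 over all probe sets by limma. It rose in zinc-treated Atp7b-/- against wild type by 0.67 (0.32 to 1.01, adjusted p = 0.0294), and between the mutant groups it differed by -0.12 (-0.46 to 0.23, adjusted p = 0.755). On this probe set, too, the rise in zinc-treated Atp7b-/- against wild type missed the threshold without wild type replicate 1, 3 or 4 (0.67, 0.67 and 0.60). The same held without zinc-treated replicate 1, 3 or 4 (0.53, 0.67 and 0.66). The limma adjusted p was at most 0.0731 in these settings. Over all 11 probe sets of the members, 2 were called in untreated Atp7b-/- against wild type, none between the mutant groups and 2 in zinc-treated Atp7b-/- against wild type by limma, where 18.8%, 4.47% and 4.79% of all 45037 probe sets were.

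**Figure D1:**
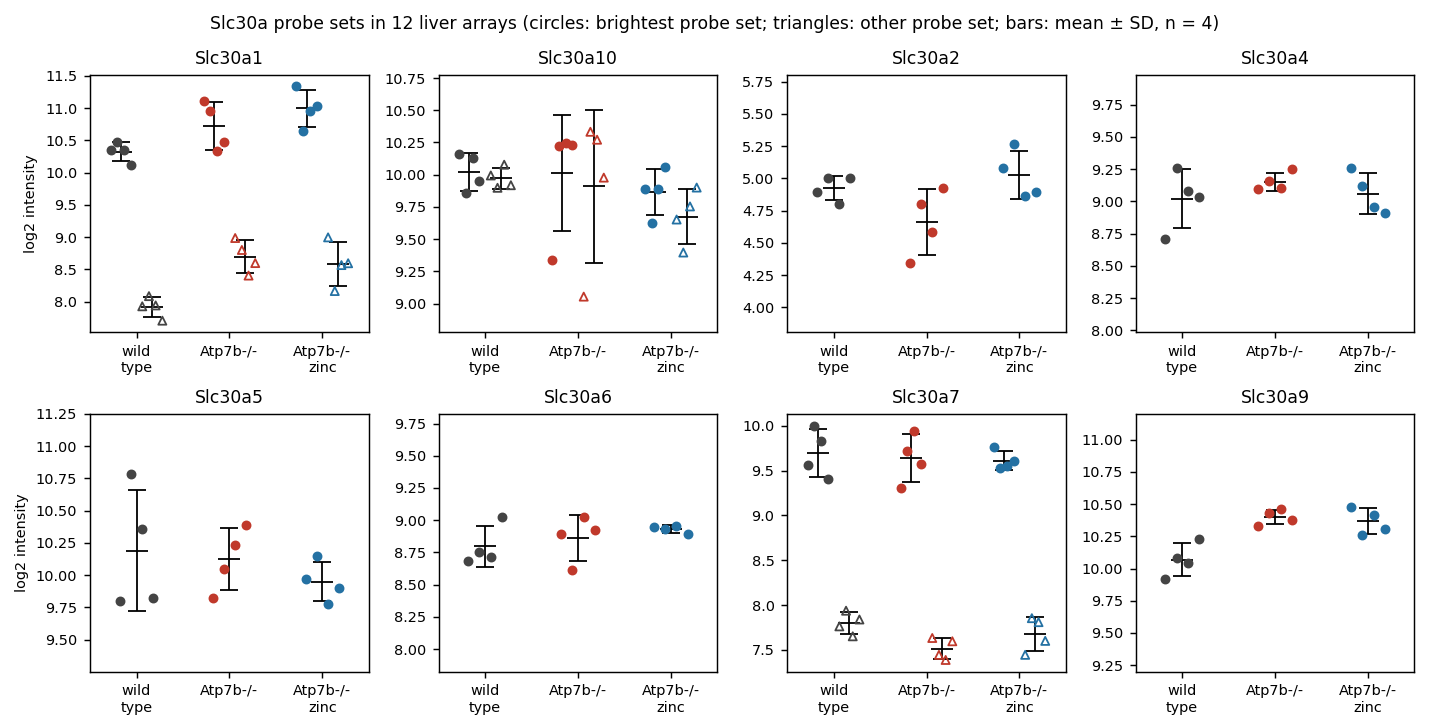
Log2 intensity (vertical axes, each panel with its own range) of the 11 Slc30a probe sets in the 12 arrays by group, with circles for the probe set that stands for the gene, triangles for the other, and bars for mean ± SD (n = 4). The Slc30a9 arrays of both mutant groups lie above the wild type arrays, Slc30a1 triangles do so too, and 1 untreated array lies far below the rest in Slc30a10 at 9.34.

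The 2 probe sets of Slc30a1 gave different values for the untreated mutant, 0.39 and 0.78 above wild type. The brighter minus the dimmer was 2.42, 2.39, 2.41 and 2.41 in wild type (mean 2.41 ± 0.01), 2.13, 2.15, 1.93 and 1.88 in untreated Atp7b-/- (2.02 ± 0.14), and 2.34, 2.48, 2.39 and 2.43 in zinc-treated Atp7b-/- (2.41 ± 0.06; SD, n = 4 each). All 4 untreated Atp7b-/- arrays lay below all 8 other arrays. This difference was -0.39 in untreated Atp7b-/- against wild type and 0.39 in zinc-treated against untreated Atp7b-/-, each with an exact two-sided permutation p = 0.0286, the smallest that 4 against 4 arrays allow, and 0.129 after Benjamini-Hochberg adjustment over the 9 such comparisons of 3 genes, so that neither passed after adjustment. Between zinc-treated Atp7b-/- and wild type it was 0.00 (exact permutation p = 0.886). These tests were chosen after the values were seen. RNA quality was read as the level of 3' minus 5' control probe sets of actin and Gapdh. Averaged, it was 0.79 to 0.88 in untreated Atp7b-/-, 0.62 to 0.78 in wild type and 0.54 to 0.74 in zinc-treated Atp7b-/- arrays. For either control alone the untreated Atp7b-/- and wild type arrays overlapped. Actin was at 1.256 to 1.396 and 1.026 to 1.371 in these groups, and Gapdh at 0.325 to 0.369 and 0.176 to 0.344. The part of RNA quality in the result was not tested.

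**Figure D2:**
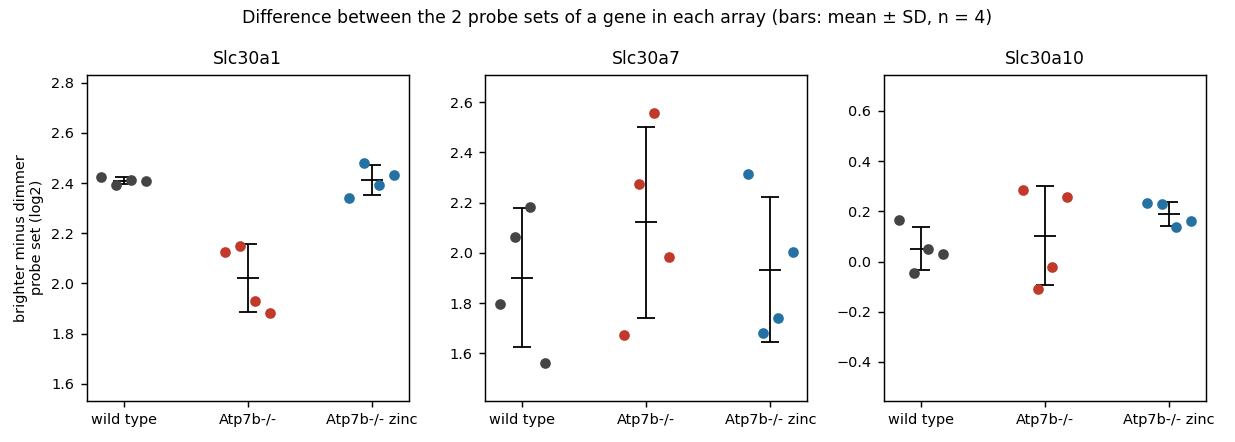
Difference in log2 intensity between the brighter and the dimmer probe set of Slc30a1, Slc30a7 and Slc30a10 in each array (vertical axes with separate ranges), by group, with bars for mean ± SD (n = 4). For Slc30a1 the untreated Atp7b-/- arrays lie at 1.88 to 2.15, below the other 8 arrays, while for Slc30a7 and Slc30a10 the groups overlap.

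By the root mean square difference of mean-centred log2 levels over the 12 arrays, the genes most like Slc30a1 were Bbs7 (0.183), Sumf2 (0.205), Klf6 (0.213), Stk17b (0.217) and Ing2 (0.223). The median over all genes was 0.413, and the root mean square of Slc30a1 about its own mean was 0.368. Bbs7, a subunit of the BBSome complex of cilia, was at 5.70 ± 0.02 in wild type, 6.11 ± 0.23 in untreated and 6.31 ± 0.17 in zinc-treated Atp7b-/- (SD, n = 4). It was 0.40 higher in untreated Atp7b-/- (adjusted p = 0.0178) and 0.61 higher in zinc-treated Atp7b-/- than in wild type (adjusted p = 0.00382, both by limma). Bbs7 was picked because its levels follow those of Slc30a1 in these same arrays, so these p-values are no separate evidence. Of the others, Sumf2 was called only in zinc-treated Atp7b-/- against wild type (0.47, limma, adjusted p = 0.0266). Klf6, Stk17b and Ing2 were called in no comparison. Slc30a1 was also the member with the widest range of group means.

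Slc30a10 (gene 226781, chromosome 1) encodes a manganese exporter of the plasma membrane through which hepatocytes pass manganese into bile. Its promoter is shown as the member's with the most matches wholly within the 250 bases before the start. Slc30a4 also had 3 in its window, but its last begins at base -6 and runs across the start. In Slc30a10 the first run of capitals holds 2 matches that overlap, 1 on each strand, and the second holds 1.
Slc30a10, chr1:185454598-185454847, plus strand: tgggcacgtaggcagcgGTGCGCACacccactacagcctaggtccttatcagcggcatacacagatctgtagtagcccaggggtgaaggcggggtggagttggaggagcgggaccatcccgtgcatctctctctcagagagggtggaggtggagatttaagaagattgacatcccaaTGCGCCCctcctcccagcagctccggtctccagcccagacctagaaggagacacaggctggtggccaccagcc
The brighter probe set of Slc30a10 (1439934_at) was at 10.16, 9.85, 10.13 and 9.95 in wild type, 9.34, 10.22, 10.25 and 10.23 in untreated mutants, and 9.89, 9.62, 9.89 and 10.06 in zinc-treated Atp7b-/-. Untreated replicate 1 was the lowest of the 12 arrays and the other 3 untreated arrays were the highest, so that the groups overlapped. No difference in Slc30a10 passed the test: it was -0.01 (-0.40 to 0.37, adjusted p = 0.969) in untreated Atp7b-/- against wild type, -0.14 (-0.53 to 0.24, adjusted p = 0.694) between the mutant groups and -0.16 (-0.54 to 0.23, adjusted p = 0.676) in zinc-treated Atp7b-/- against wild type by limma.

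The dimmer probe set of Slc30a10 (1438751_at) was at 9.99, 9.90, 10.08 and 9.92 in wild type, 9.05, 10.33, 10.27 and 9.98 in untreated mutants, and 9.65, 9.40, 9.75 and 9.90 in zinc-treated Atp7b-/-. Again untreated replicate 1 was the lowest array. The differences were -0.06, -0.23 and -0.30 in the same order, with limma adjusted p of 0.863, 0.618 and 0.525 over all probe sets. Without untreated replicate 1, which also had the lowest median correlation with its group (0.991 against 0.996 for the other 3), the zinc-treated arrays were lower than the untreated ones by -0.52 on this probe set (limma, adjusted p = 0.0330) and by -0.37 on the brighter one (adjusted p = 0.0678). The untreated mutant then lay 0.22 and 0.21 above wild type on the dimmer and the brighter probe set, and neither passed the test.

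Slc30a9 (gene 109108, chromosome 5) encodes a member of the family that exports zinc from mitochondria. Its 1 probe set (1426668_at) was at 9.92, 10.08, 10.04 and 10.23 in wild type, 10.33, 10.43, 10.46 and 10.37 in untreated mutants, and 10.48, 10.26, 10.42 and 10.31 in zinc-treated Atp7b-/-. All 8 mutant arrays lay above all 4 wild type arrays, and the mutant groups overlapped. The means were 10.07 ± 0.13, 10.40 ± 0.06 and 10.37 ± 0.10 (SD, n = 4 each). Slc30a9 rose in untreated Atp7b-/- by 0.33 (95% interval 0.16 to 0.51), a 1.26-fold change (limma, adjusted p = 0.00961), and it was the 1 member whose untreated mutant and wild type arrays did not overlap on the probe set that stands for the gene, where 26.4% of all genes did not. On the dimmer probe sets of Slc30a1 and Slc30a7 these groups did not overlap either, and on that of Slc30a10 they did. The share of all probe sets without overlap was not counted, so these probe sets cannot be set against a background.

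In zinc-treated Atp7b-/- Slc30a9 rose by 0.30 against wild type (0.12 to 0.47, 1.23-fold, limma, adjusted p = 0.0393). Between the mutant groups it differed by -0.03 (-0.21 to 0.14, adjusted p = 0.864). The rise in the untreated mutant passed the threshold in all 22 alternatives, at 0.25 to 0.39. The rise in zinc-treated Atp7b-/- against wild type missed it in 12 of 22, at 0.25 to 0.33 and a limma adjusted p at most 0.119. Among them were the replicate block (0.30, adjusted p = 0.0725), array weights (0.27) and only the groups compared (0.30). Others were without wild type replicate 1, 2 or 3 (0.25, 0.30 and 0.29), untreated replicate 2 or 4 (0.30 each) or zinc-treated replicate 1, 3 or 4 (0.26, 0.28 and 0.32). Over all probe sets the limma adjusted p of this rise was 0.0584. Slc30a1 and Slc30a9 were the 2 members whose zinc-treated arrays did not overlap with wild type on those probe sets, where 14.3% of all genes did not.

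Slc30a2 and Slc30a4 encode transporters that load zinc into vesicles, and both are known for supplying zinc to milk in the mammary gland. SLC30A2 also serves the zymogen granules of pancreatic acinar cells. Slc30a2 (gene 230810, chromosome 4, probe set 1427339_at) was at 4.89, 5.005, 4.80 and 5.001 in wild type, 4.35, 4.80, 4.58 and 4.93 in untreated mutants, and 5.08, 5.26, 4.87 and 4.89 in zinc-treated Atp7b-/-. Its probe set was brighter than 36.7% of all probe sets, and the groups overlapped. It differed by -0.26 (-0.53 to 0.01, adjusted p = 0.142) in untreated Atp7b-/- against wild type, by 0.36 (0.09 to 0.63, unadjusted p = 0.0124, adjusted p = 0.106) between the mutant groups, and by 0.10 (-0.17 to 0.37, adjusted p = 0.709) in zinc-treated Atp7b-/- against wild type, and no difference passed the limma test. Its highest array, zinc-treated replicate 2 at 5.26, was the one with the highest acinar marker mean, 8.39, and zinc-treated replicate 3, at 6.18 for those markers, was at 4.87. The part of the acinar transcripts in these values was not tested.

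Slc30a4 (gene 22785, chromosome 2, probe set 1418843_at) was at 8.71, 9.26, 9.08 and 9.04 in wild type, 9.10, 9.16, 9.11 and 9.25 in untreated mutants, and 9.26, 9.12, 8.96 and 8.91 in zinc-treated Atp7b-/-. The groups overlapped, and wild type replicate 1 was the lowest of the 12. The differences of 0.13 (-0.11 to 0.37), -0.09 (-0.33 to 0.15) and 0.04 (-0.20 to 0.28) did not pass the limma test, with adjusted p of 0.407, 0.688 and 0.883.

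The early secretory pathway is served by Slc30a5, Slc30a6 and Slc30a7. SLC30A5 and SLC30A6 form a heterodimer and SLC30A7 a homodimer, and both complexes pass zinc to enzymes such as alkaline phosphatases. Slc30a5 (gene 69048, chromosome 13, probe set 1422497_at) was at 9.80, 10.78, 10.36 and 9.82 in wild type, 9.82, 10.05, 10.24 and 10.39 in untreated mutants, and 9.97, 10.14, 9.78 and 9.90 in zinc-treated Atp7b-/-. The wild type arrays alone spanned nearly the whole range, with a SD of 0.47 against a median of 0.15 for members of that group and 0.14 for all genes. Its differences were -0.07 (-0.49 to 0.35), -0.17 (-0.59 to 0.24) and -0.24 (-0.66 to 0.18), with limma adjusted p of 0.823, 0.654 and 0.519.

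Slc30a6 (gene 210148, chromosome 17, probe set 1424241_at), whose product partners that of Slc30a5, was at 8.68, 8.76, 8.72 and 9.03 in wild type, 8.89, 8.61, 9.03 and 8.92 in untreated mutants, and 8.95, 8.93, 8.96 and 8.89 in zinc-treated Atp7b-/-. The zinc-treated arrays were close together (SD 0.03) and inside the range of the other groups. Its differences were 0.07 (-0.15 to 0.28), 0.07 (-0.14 to 0.28) and 0.14 (-0.08 to 0.35), and none passed the limma test (adjusted p of 0.648, 0.733 and 0.468).

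The brighter probe set of Slc30a7 (gene 66500, chromosome 3, 1435717_at) was at 9.56, 10.002, 9.83 and 9.40 in wild type, 9.31, 9.72, 9.95 and 9.58 in untreated mutants, and 9.76, 9.53, 9.55 and 9.60 in zinc-treated Atp7b-/-. All 3 groups overlapped, and the differences of -0.06 (-0.37 to 0.25), -0.03 (-0.34 to 0.28) and -0.09 (-0.40 to 0.22) did not pass the limma test (adjusted p of 0.781, 0.938 and 0.783). The dimmer probe set of Slc30a7 (1450697_at) was at 7.76, 7.94, 7.65 and 7.84 in wild type, 7.63, 7.44, 7.39 and 7.60 in untreated mutants, and 7.44, 7.85, 7.81 and 7.60 in zinc-treated Atp7b-/-. Here every untreated mutant array lay below every wild type array, with a difference of -0.28 (-0.51 to -0.06) that missed the threshold over all probe sets (limma, adjusted p = 0.0734) and passed it after quantile normalization, at -0.38 (adjusted p = 0.0227). Zinc-treated arrays overlapped with both other groups, at 0.16 against untreated Atp7b-/- (adjusted p = 0.437) and -0.12 against wild type (adjusted p = 0.602). Brighter minus dimmer differed by 0.22 in untreated Atp7b-/- against wild type for Slc30a7 (exact permutation p = 0.4) and by 0.05 for Slc30a10 (exact permutation p = 0.657).

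**Figure D3:**
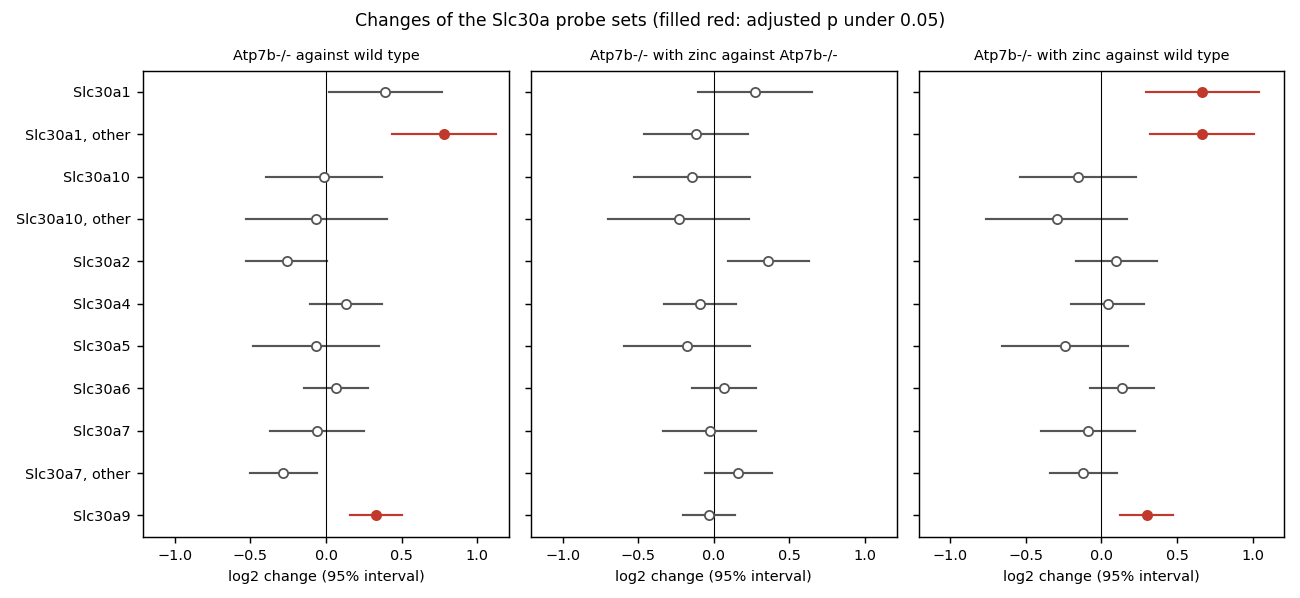
Log2 change of each Slc30a probe set in the 3 comparisons (horizontal axes, shared range), with 95% intervals from limma, filled red where the adjusted p was under 0.05 (over genes for the probe set that stands for the gene, over probe sets for the other). Red points lie to the right of 0 for Slc30a1 and Slc30a9, and none is red between the mutant groups.

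The spread within groups was uneven. The median SD of the 8 members was 0.15 in wild type, 0.25 in untreated and 0.16 in zinc-treated Atp7b-/- arrays, against 0.14, 0.13 and 0.13 for all genes. In untreated Atp7b-/- it ran from 0.06 for Slc30a9 to 0.45 for Slc30a10. On the probe sets that stand for the genes, untreated replicate 1 was the lowest array of its group for 6 of the 8 members (Slc30a2, Slc30a4, Slc30a5, Slc30a7, Slc30a9 and Slc30a10) and the highest for Slc30a1. This array also had the lowest correlation with its group, as given for Slc30a10. The rise of Slc30a9 in the untreated mutant passed the threshold without it.

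The other family members on the array, Slc30a3 and Slc30a8, were both called in untreated Atp7b-/- against wild type, in opposite directions, where 24.6% of all genes were called. Slc30a8 (gene 239436, chromosome 15), the islet transporter, was at 4.28, 4.24, 4.18 and 4.35 in wild type, 5.05, 4.64, 4.75 and 4.82 in untreated mutants, and 4.30, 4.20, 4.54 and 4.24 in zinc-treated Atp7b-/-. All untreated mutant arrays lay above the 8 others, which were near the lower quartile of an array, 4.13 to 4.29. Slc30a8 rose by 0.55 (0.34 to 0.76, adjusted p = 0.00135) in untreated Atp7b-/-, fell by 0.49 with zinc (limma, adjusted p = 0.0101) and differed by 0.06 between zinc-treated Atp7b-/- and wild type (adjusted p = 0.793). The 4 islet markers measured of 5 had a mean of 4.77 to 4.80 in untreated Atp7b-/-, below the 4.84 to 5.05 of the other 8 arrays, and none was called.

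Slc30a3 (gene 22784, chromosome 5), known for filling synaptic vesicles with zinc, was at 8.04, 7.71, 7.99 and 7.90 in wild type, 7.63, 7.74, 7.56 and 7.60 in untreated mutants, and 7.84, 7.85, 7.99 and 7.79 in zinc-treated Atp7b-/-. It fell by 0.28 in untreated Atp7b-/- (limma, adjusted p = 0.0296) with 1 array of overlap, differed by 0.24 between the mutant groups (adjusted p = 0.118) and by -0.04 between zinc-treated Atp7b-/- and wild type (adjusted p = 0.833). The fall missed the threshold when wild type replicate 1 or 3 (-0.24 and -0.25) or untreated replicate 1, 3 or 4 (-0.28, -0.25 and -0.27) was left out.

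Among the 14 zinc importers of the Slc39a family, 3 rose and 1 fell in untreated Atp7b-/- against wild type, none rose and 3 fell with zinc, and 2 rose in zinc-treated Atp7b-/- against wild type. In the same order 24.6%, 6.54% and 7.62% of all genes changed. The median changes of the importers were 0.05, 0.01 and 0.03. Slc39a11, a zinc importer of the Golgi and other membranes, was at 8.98 to 9.23 in wild type, 9.73 to 9.88 in untreated and 9.04 to 9.39 in zinc-treated Atp7b-/-. It rose by 0.65 (0.46 to 0.84, adjusted p = 0.000128) in the untreated mutant and fell by 0.57 with zinc (adjusted p = 0.00178), and zinc-treated arrays differed from wild type by 0.08 (adjusted p = 0.655, all by limma). Unlike Slc30a1 and Slc30a9, its zinc-treated arrays overlapped with wild type and not with the untreated mutant.

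Slc39a3, a plasma membrane importer, rose by 0.49 (limma, adjusted p = 0.00118) and fell by 0.40 with zinc (adjusted p = 0.0148) on its brighter probe set, while its other probe set differed by -0.15 and 0.05 and passed neither test. The fall of Slc39a3 with zinc missed the threshold as the mean of both probe sets (-0.17, adjusted p = 0.0947), without untreated replicate 4 (-0.36, adjusted p = 0.0553) and without zinc-treated replicates 2 and 3 (-0.33, adjusted p = 0.132). Slc39a9, a zinc importer of the Golgi, rose by 0.32 in untreated Atp7b-/- (adjusted p = 0.0132), while its 2 other probe sets differed by -0.15 and 0.09. The call of Slc39a9 was lost after quantile normalization (0.22, adjusted p = 0.056) and with the mean of its probe sets (0.087, adjusted p = 0.424). Slc39a10, a plasma membrane importer, fell by 1.09 (-1.89 to -0.29, limma, adjusted p = 0.0477), with overlapping arrays at 7.18 to 8.20 in wild type and 5.40 to 7.47 in untreated Atp7b-/-. It missed the threshold in 13 of 22 alternatives, among them without untreated replicate 1 (-0.73, adjusted p = 0.114), and its other probe set differed by -0.76 (adjusted p = 0.0519). Slc39a4, the intestinal zinc importer, was higher by 0.54 in zinc-treated Atp7b-/- than in wild type (0.28 to 0.79, limma, adjusted p = 0.0134). It lies outside the rule for named genes and was chosen after its values were seen. The same is true of Slc39a6. On 1 of its other probe sets Slc39a6 fell by 0.42 in untreated Atp7b-/- (limma, adjusted p = 0.0268 over all probe sets). The probe set that stands for Slc39a6 differed by -0.26 and was not called (limma, adjusted p = 0.107).

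Of the 5 genes of zinc buffering and sensing, Mt1 and Mt2 rose in both mutant groups against wild type and the other 3 were not called. Of all genes 14.3% rose in untreated and 4.89% in zinc-treated Atp7b-/- against wild type. Mt1, which encodes a zinc-binding and copper-binding metallothionein, was at 7.14 to 11.17 in wild type, 14.52 to 14.79 in untreated and 14.29 to 14.62 in zinc-treated Atp7b-/-, a log2 change against wild type of 5.63 in untreated (limma, adjusted p = 9.56e-06) and 5.37 in zinc-treated mutants (limma, adjusted p = 4.28e-05). On the dimmer probe set of Mt1 the changes were 3.79 (adjusted p = 0.000576) and 3.95 (adjusted p = 0.00142 over all probe sets by limma). Mt2 changed by 5.72 and 5.55. Mtf1, the sensor of zinc, differed by -0.10 (adjusted p = 0.428), -0.18 (adjusted p = 0.256) and -0.28 (adjusted p = 0.0746) in the 3 comparisons, and no difference passed the limma test.

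Of 7 enzymes and chaperones of the secretory pathway that carry zinc, 5 were measured. On the probe sets that stand for these genes, 2 rose in untreated Atp7b-/-, 1 fell with zinc, and 2 rose in zinc-treated Atp7b-/- against wild type. Over all genes 24.6%, 6.54% and 7.62% changed in these comparisons. Alpl, an alkaline phosphatase that receives its zinc from the SLC30A5, SLC30A6 and SLC30A7 complexes, was at 6.49 to 6.64 in wild type, 7.55 to 7.999 in untreated and 6.96 to 7.22 in zinc-treated Atp7b-/-, with no overlap between any of the 3 groups. It rose by 1.15 (0.94 to 1.36, adjusted p = 2.22e-06), fell by 0.67 with zinc (adjusted p = 0.00143) and was 0.48 above wild type (adjusted p = 0.00904, all by limma). Its 3 transporters were not called in any comparison on the probe sets that stand for them. The other probe set of Erp44 rose by 0.38 in untreated Atp7b-/- (limma, adjusted p = 0.0266 over all probe sets). Erp44 was chosen after its values were seen. Nt5e, a zinc-dependent ectonucleotidase, rose by 1.56 (limma, adjusted p = 0.000104) and by 1.65 with zinc against wild type (adjusted p = 0.00021) on its brightest probe set. On its 2 other probe sets Nt5e changed by 0.64 (adjusted p = 0.00281) and differed by -0.17 (adjusted p = 0.209) in untreated Atp7b-/-. Enpp3 was not called on the probe set that stands for it. On another it rose by 0.78 in untreated Atp7b-/- (limma, adjusted p = 0.000257 over all probe sets). There it was 0.90 higher with zinc than in wild type (limma, adjusted p = 0.000263). A further probe set of Enpp3 rose by 0.55 with zinc against untreated Atp7b-/- (limma, adjusted p = 0.0228).

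Of 7 genes of manganese transport, which Slc30a10 serves, 1 fell in untreated Atp7b-/-, 1 rose and 1 fell with zinc, and 1 rose and 1 fell in zinc-treated Atp7b-/- against wild type. The shares of all genes called were 24.6%, 6.54% and 7.62% in that order. Slc40a1, the iron exporter ferroportin, which has been reported to move manganese as well, was at 11.57 to 11.98 in wild type, 10.88 to 11.14 in untreated and 11.10 to 11.33 in zinc-treated Atp7b-/-. It fell by 0.75 (limma, adjusted p = 6.85e-05) and, with zinc, by 0.57 against wild type (adjusted p = 0.0019). Slc40a1 is also expressed by macrophages, whose 7 markers had a mean of 8.12 to 9.06 in wild type, 7.64 to 8.73 in untreated and 7.88 to 8.17 in zinc-treated arrays, and their part in this fall was not tested. Slc39a14 and Slc39a8 import both zinc and manganese. Slc39a14, the importer through which hepatocytes take up manganese, fell by 0.42 with zinc (limma, adjusted p = 0.0464), a call lost in 14 of 22 alternatives with an adjusted p at most 0.168. Slc39a8 rose by 0.48 in zinc-treated Atp7b-/- against wild type (limma, adjusted p = 0.0415), lost in 11 of 22 with an adjusted p at most 0.121. Slc11a2, an importer of iron and manganese, rose by 0.47 with zinc (limma, adjusted p = 0.0491), lost in 11 of 22 with an adjusted p at most 0.125. On the 3 other probe sets of Slc39a14 the difference with zinc was -0.54 to -0.21, on the other of Slc39a8 it was 0.35 against wild type, and on the 3 others of Slc11a2 it was 0.17 to 0.28 with zinc, and none was called. In untreated Atp7b-/- against wild type, 1 other probe set of Slc39a14 rose by 0.85 (limma, adjusted p = 0.0125) and 1 of Slc11a2 fell by 0.43 (adjusted p = 0.0129). Slc39a14 lies outside the rule for named genes and was chosen after its values were seen. Values without each array whose loss ends these 3 calls stand with the limits at the end.

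Of 7 genes of copper transport, 1 rose and 1 fell in untreated Atp7b-/- against wild type, where 24.6% of all genes changed. None was called by limma in the comparisons with zinc-treated arrays on the probe sets that stand for these genes. There 6.54% of all genes changed against untreated Atp7b-/- and 7.62% against wild type. Slc31a1, the copper importer of the plasma membrane, fell by 0.35 in untreated Atp7b-/- (limma, adjusted p = 0.0167). On its other probe set it fell by 0.66 (limma, adjusted p = 2.98e-05 over all probe sets) and, in zinc-treated Atp7b-/- against wild type, by 0.46 (adjusted p = 0.00205). Of the 7 other probe sets of Cp, which encodes ceruloplasmin, 1 fell by 0.62 in untreated Atp7b-/- (limma, adjusted p = 0.00136) and rose by 0.45 with zinc (adjusted p = 0.0327), and the other 6 were not called. The other probe set of Slc31a2, a relative of Slc31a1, fell by 0.37 in untreated Atp7b-/- (limma, adjusted p = 0.0283). Cp and Slc31a2 were chosen after their values were seen. Commd1, which binds copper and acts with ATP7B, rose by 0.21 (limma, adjusted p = 0.0422), a call lost in 13 of 22 alternatives with an adjusted p at most 0.262, and its other probe set was 0.34 higher (adjusted p = 0.0713).

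**Figure D4:**
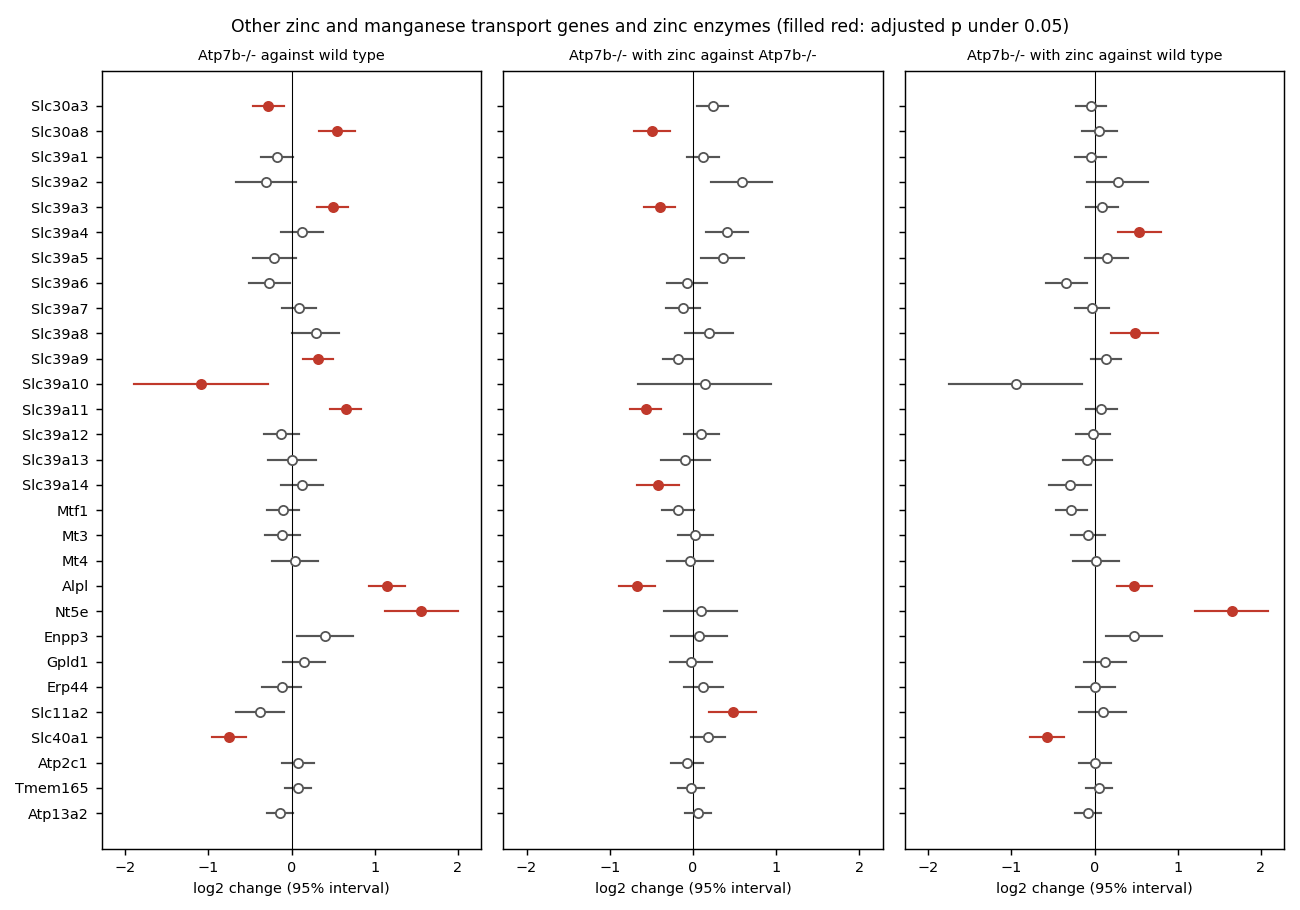
Log2 change (horizontal axes, shared range) of the other Slc30a genes, the Slc39a importers, Mtf1, Mt3, Mt4, secretory zinc enzymes and manganese transport genes in the 3 comparisons, with 95% intervals from limma, filled red where the adjusted p was under 0.05. Alpl is red at 1.15, -0.67 and 0.48, and Slc39a11 at 0.65 and -0.57. Mt1 and Mt2 are left out because their changes lie beyond the range drawn.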

How the data were processed

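The values are the log2 intensities of Affymetrix GeneChip mouse arrays that the authors deposited as a series table. The sources used here do not state their normalization. The 45101 probe sets had values of 2.22 to 15.2, array medians of 5.63 to 5.71 and no missing value. The number of arrays limits the precision. The 64 control probe sets were not used. Of the rest, 34945 had exactly 1 gene symbol, 932 several and 9160 none. Each of 18193 genes was read from its probe set of highest mean level, and symbols were updated through RefSeq.

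For the comparisons, limma 3.58.1 (lmFit, contrasts.fit, eBayes; R 4.3.3) was run as a single model with a mean for each group, with Benjamini-Hochberg adjustment over all genes and a threshold of 0.05. A second fit over 45037 probe sets served the other probe sets. Differences between probe sets of a gene were compared with exact permutation tests. Nothing was imputed, and no filter on low values was used, so all 8 members were tested. The fit was tested on simulated data.

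The named genes are all members and, of each other list, up to 4 with the smallest adjusted p in Atp7b-/- against wild type. The members and lists were chosen with earlier results of these data known. The alternatives were 22 for genes and 14 for probe sets: other normalizations, probe set choices, variance models, array weights, only the groups compared, a replicate block and arrays left out. The same alternatives for the genes outside the family list were added after the data were seen.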

Additional observations from a re-analysis of the deposited data

Results flagged for a closer look

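In untreated Atp7b-/-, the level of Slc30a10 in replicate 1 was 9.339, while the other 3 arrays lay between 10.224 and 10.249, so that the gap made up 0.972 of the group's range, above Dixon's critical value at a level of 95% for 4 arrays. It was the 1 such value among the 33 sets of 4 arrays examined, and chance gives about 1 in 20.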

How the results depend on the processing

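The number of members called in untreated Atp7b-/- against wild type was 1, and 2 with the mean of all probe sets, where Slc30a1 was added. Leaving out single arrays gave 1 to 2. Between the mutant groups it was 0 in all 22 alternatives by limma. In zinc-treated Atp7b-/- against wild type it was 2, and 1 with array weights, with only the groups compared, with the replicate block and without zinc-treated replicates 2 and 3. Slc30a9 was the member lost with the block. Leaving out single arrays gave 0 to 2, with 0 without wild type replicate 1 or 3 or zinc-treated replicate 1, 3 or 4. Of the 11 probe sets, 1 was called after quantile normalization in that comparison, and 0 to 2 when single arrays were left out. Between the mutant groups 0 to 1 were called, the 1 without untreated replicate 1.

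Reversals concerned differences of members that were not called on either side. Slc30a10 in untreated Atp7b-/- against wild type was 0.026 with median centring, 0.129 with array weights and -0.091 to 0.213 with single arrays left out, and its other probe set -0.204 to 0.222. With single arrays left out, Slc30a4 in zinc-treated Atp7b-/- against wild type was -0.064 to 0.118, and Slc30a5 in untreated Atp7b-/- against wild type -0.198 to 0.130. Slc30a6 was -0.038 after quantile normalization in untreated Atp7b-/- against wild type, and -0.013 to 0.125 between the mutant groups with single arrays left out. Slc30a7 between the mutant groups was 0.038 after quantile normalization, 0.067 with the mean of probe sets, 0.043 without zinc-treated replicates 2 and 3 and -0.137 to 0.076 with single arrays left out, where its other comparisons were -0.164 to 0.049 (untreated against wild type) and -0.187 to 0.013 (zinc-treated against wild type). Slc30a9 between the mutant groups was 0.026 after quantile normalization and -0.070 to 0.003 with single arrays left out, and the dimmer Slc30a1 probe set -0.255 to 0.022. The causes were not tested.

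Calls of other genes were lost without single arrays. Slc39a14 with zinc was lost without wild type replicate 3 (-0.42), untreated replicates 1 to 4 (-0.39, -0.47, -0.44 and -0.40) and zinc-treated replicates 1 to 4 (-0.43, -0.47, -0.38 and -0.42). Slc39a8 was lost without wild type replicate 1 or 3 (0.41 and 0.39), untreated replicate 2, 3 or 4 (0.48 each) and zinc-treated replicate 1, 2 or 4 (0.50, 0.45 and 0.43). Slc11a2 was lost without wild type replicate 1 (0.47), untreated replicates 1 to 4 (0.46, 0.48, 0.46 and 0.50) and zinc-treated replicate 1, 3 or 4 (0.43, 0.53 and 0.38). Slc39a10 was lost without wild type replicate 1, 3 or 4 (-1.16, -1.10 and -0.88), untreated replicate 1, 2 or 4 (-0.73, -1.05 and -1.16) and zinc-treated replicate 1 or 4 (-1.09 each). Commd1 was lost without wild type replicate 1 or 2 (0.20 and 0.16), untreated replicate 2, 3 or 4 (0.19, 0.20 and 0.22) and zinc-treated replicate 1, 2 or 4 (0.21 each).

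Over all genes, the counts of calls were 4480, 1190 and 1386 in the 3 comparisons. They ran from 3292 to 4827, from 614 (without zinc-treated replicates 2 and 3; 689 without untreated replicate 4) to 1861 (array weights) and from 699 (without those replicates) to 1639. The share of calls that were higher was 58.2% in untreated Atp7b-/- against wild type, and 49.6% after quantile normalization. Between the mutant groups 309 of 1190 calls were higher, and 432 of 1080 after quantile normalization. Same-numbered arrays of different groups had correlations of -0.130 to 0.237 in their deviations from the group means, with 5 of 12 over 0.1. The 36 pairs of arrays with different numbers had correlations of -0.224 to 0.266. Whether the numbers pair the arrays was not tested. With the replicate block the calls over all genes were 4449, 1171 and 1353. Slc30a2 was not tested where dim genes were left out. Differences smaller than the 95% intervals given could not be shown with 4 arrays a group, and levels of Slc30a2 and Slc30a8 lay near the dim end of the arrays.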
